A study of Capra hircus with 90 samples.

Results

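Whether 24 h of breathing 6% CO2 changed transcripts by the same amount at 3 brainstem sites was measured in 36 of the 90 libraries of the series. The libraries were taken by label: 6 goats after 24 h of 6% inspired CO2 and 6 other goats after 24 h of room air, each punched at all 3 sites, so 12 goats gave 36 libraries. The tissue was the ventral respiratory column (VRC), 2 to 4 mm rostral to the obex, the nucleus of the solitary tract (NTS), at 0 to 2 mm, and the retrotrapezoid nucleus (RTN), at 8 to 10 mm. All goats were outbred females at least 2 years old (Alpine, Saanen, Toggenburg and other breeds), and the VRC punch was aimed to include the pre-Bötzinger complex and the nucleus ambiguus. The remaining 54 libraries hold 3 h of 6% CO2 and, from a second extraction and sequencing batch, 7 d of 6% CO2 and 7 d of room air.

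The NTS receives afferents from the carotid bodies, baroreceptors and lungs. The VRC holds the neurons that generate the breathing rhythm and the motor neurons of the upper airway, and the RTN holds neurons and glia that sense CO2 and acid and drive breathing. Raised CO2 acidifies blood and brain fluid and raises breathing, and all 3 sites lie on the path from that stimulus to the respiratory motor output. A difference of effect, as used here, is the CO2 minus room-air effect at one site less the same effect at another, on the log2 scale. It equals a site difference within each goat, compared between CO2 goats and room-air goats.

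The 36 libraries held 5.46 to 35.7 M counts, and the shallowest was a VRC library after CO2. Of 16048 genes tested, 234 carry a symbol, because names come from the authors' deposited tables of changed genes. Of these symbols 205 are in the tables of the NTS or the VRC at 24 h, which rest on libraries used here, and 29 are only in tables of other times. No symbol was linked for NMB, a neuropeptide gene of RTN neurons, nor for any astrocyte gene of the list used, so the site labels were not checked against those genes. In the NTS, PRPH, a filament protein of motor and peripheral neurons, had 1.90 to 35.5 CPM after CO2 and 3.58 to 570 CPM in room air. The high PRPH values were those of number 5 after CO2 and numbers 5 and 6 in room air. These 3 are called below the NTS libraries that stood apart, a label given without a set criterion. CPM is a gene's count scaled to a common library size, with TMM factors.

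The CO2 effect differed between sites for 1084 of 16048 genes (6.75%) in a joint test of the 3 sites, by edgeR's quasi-likelihood test with goat as a block and Benjamini-Hochberg adjusted p under 0.05. The VRC differed from the NTS in 1428 genes (8.9%) and from the RTN in 348 genes (2.17%). Between the NTS and the RTN 0 genes passed (0%), with a lowest adjusted p of 0.122, although 1276 genes (7.95%) had an unadjusted p under 0.05. By DESeq2 22 genes passed between the NTS and the RTN, and by voom with quality weights 131. Without the goat block the counts were 491 for the joint test, 593 for VRC against NTS, 196 for VRC against RTN and 0 for NTS against RTN.

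The joint test splits into a contrast of the VRC with the mean of both other sites and the contrast of the NTS with the RTN. The VRC stood apart from that mean in 1239 genes (7.72%), 540 (3.36%) with a higher effect in the VRC and 699 (4.36%) with a lower one. In the 699 genes the median CO2 effect was -0.40 in the VRC, 0.16 in the NTS and 0.18 in the RTN. In the 540 genes it was 0.27 in the VRC, -0.39 in the NTS and -0.07 in the RTN. These medians describe genes chosen by the contrast and are not a test. The VRC had the lowest or the highest of the 3 effects in each of these genes, a position the choice of genes favours.

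**Figure D1:**
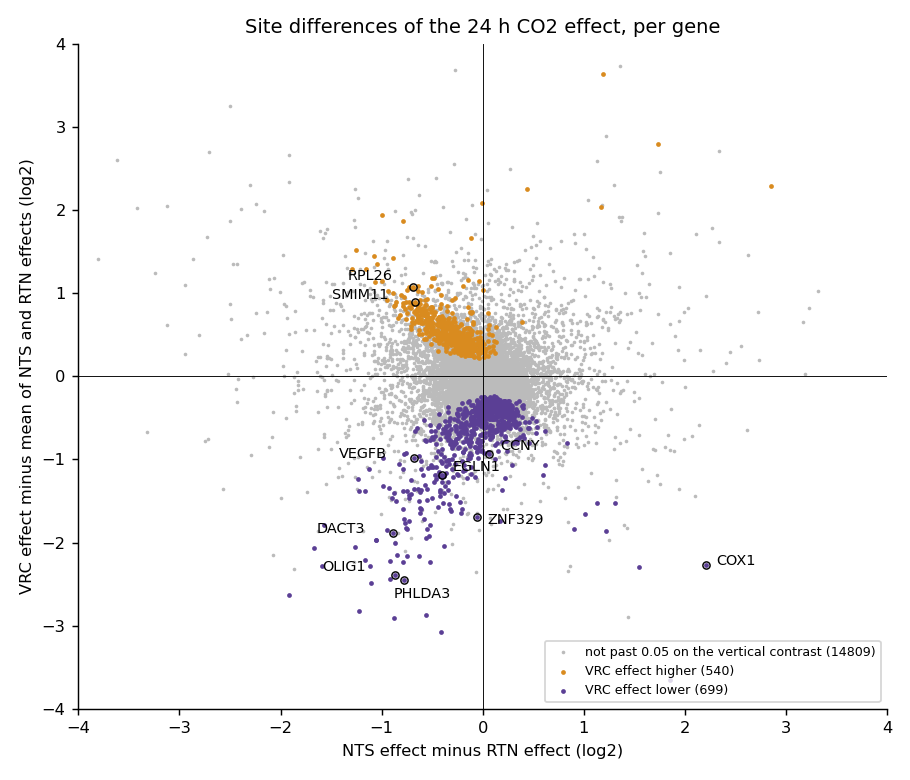
Each point is a gene, with the NTS effect minus the RTN effect (log2) on the horizontal axis and the VRC effect minus the mean of the NTS and RTN effects (log2) on the vertical axis. The 540 orange and 699 purple genes passed 0.05 on the vertical contrast, 0 passed on the horizontal one, and 4 genes lie outside the axes.

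The first comparison asked in which genes the VRC and the RTN responded differently. Of the 348 genes, 323 (2.01% of those tested) had a lower effect in the VRC than in the RTN and 25 (0.156%) a higher one, and 82 carry a symbol. The higher count was unstable, at 4 without the goat block, 88 by DESeq2, 120 by voom with quality weights, 150 without the 3 NTS libraries that stood apart, 143 without room-air goat 5 and 7 without CO2 goat 2, beside 192, 385, 416, 428, 404 and 267 lower genes. PHLDA3, NRG2 and CCDC85C had the lowest p among the lower genes with a symbol, and SMIM11 was the only higher one. Over the 323 lower genes the median CO2 effect was -0.65 in the VRC, 0.05 in the NTS and 0.33 in the RTN.

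PHLDA3 is a p53-induced protein that holds back the kinase AKT. PHLDA3 had 4.75 to 13.9 CPM, median 10.2, in the VRC after CO2, against 22.9 to 41.2 CPM, median 29.3, in the VRC in room air. In the RTN it had 10.96 to 47.3 CPM, median 27.1, after CO2, against 7.63 to 19.9 CPM, median 11.3, in room air. In the NTS it had 11.6 to 29.3 CPM after CO2 and 7.47 to 18.4 CPM in room air. Thus CO2 and room-air libraries did not overlap in the VRC, and they overlapped in the RTN and the NTS. The VRC effect was below the RTN effect by a log2 difference of -2.84 (SE 0.25, adjusted p = 1.41e-07, edgeR). Within goats, VRC minus RTN of log2(CPM + 1) was -1.70 to -1.02 in the 6 CO2 goats and 0.98 to 1.75 in the 6 room-air goats. The VRC lay below the RTN in every CO2 goat and above it in every room-air goat. An exact 2-sided permutation test over the goats gave p = 0.002165, the smallest it can give. The genes with exact tests were picked for a low p in the same contrast and goats, so these exact p-values describe the separation and add no evidence.

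NRG2, a ligand of the ErbB receptor kinases, had 5.48 to 12.2 CPM, median 7.59, in the VRC after CO2, against 14.5 to 23.1 CPM, median 19.2, in the VRC in room air. In the RTN NRG2 had 9.29 to 21.6 CPM, median 13.3, after CO2, against 5.71 to 9.57 CPM, median 7.71, in room air. The VRC groups did not overlap, and the RTN groups overlapped by the lowest CO2 library. The log2 difference was -2.10 (SE 0.21, adjusted p = 2.44e-07, edgeR).

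CCDC85C, a protein of cell junctions in the neuroepithelium, had 3.49 to 5.09 CPM, median 4.13, in the VRC after CO2, against 7.16 to 15.5 CPM, median 11.2, in the VRC in room air. In the RTN CCDC85C had 5.41 to 12.9 CPM after CO2 and 4.14 to 8.28 CPM in room air. Its log2 difference was -2.19 (SE 0.22, adjusted p = 2.44e-07, edgeR). Within goats NRG2 and CCDC85C also had groups without overlap and an exact permutation p of 0.002165. SMIM11, which encodes a small membrane protein, had a log2 difference of 0.56 (SE 0.14, adjusted p = 0.0223, edgeR), and its within-goat values overlapped between CO2 and room air (exact permutation p = 0.00649). Its call was lost without the goat block (adjusted p = 0.114) and with the 3 h libraries in the fit (adjusted p = 0.290). Across all tested genes 0.193% had higher CO2 goats without overlap in VRC minus RTN.

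**Figure D2:**
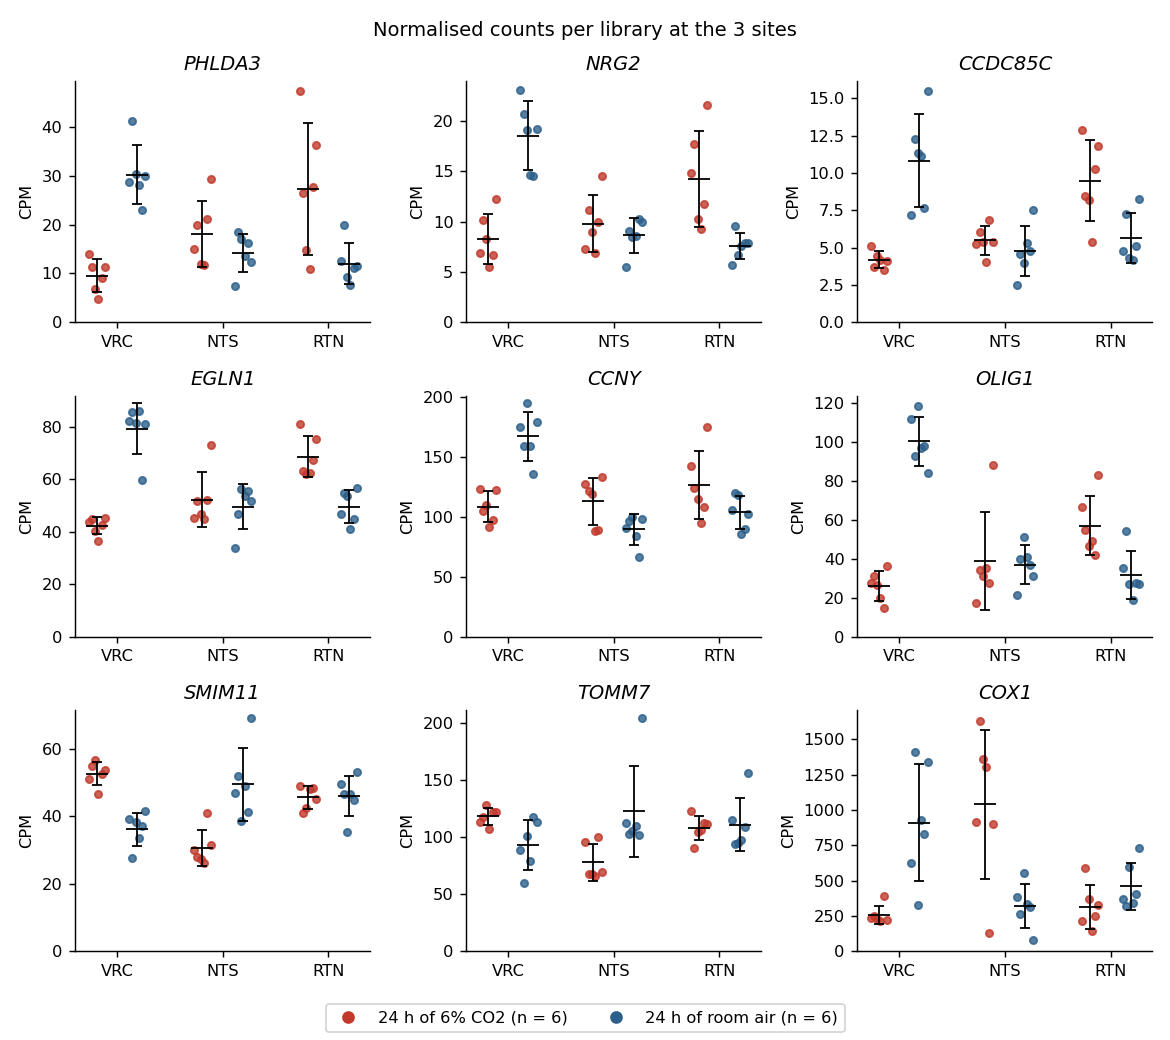
CPM of 9 genes in each library at the 3 sites, CO2 in red to the left of room air in blue, 6 libraries a group, with bars for the mean ± SD. For PHLDA3, NRG2, CCDC85C, EGLN1 and OLIG1 the VRC room-air libraries lie above all VRC CO2 libraries, while for SMIM11 and TOMM7 the NTS CO2 libraries lie below nearly all NTS room-air libraries.

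The other lower genes that led this pair hold regulators of several pathways. They were DACT3 and APCDD1, inhibitors of Wnt signalling, GNA12, a G protein subunit, CCNY, a cyclin that partners a membrane-bound kinase, and EGLN1, the prolyl hydroxylase that marks HIF for degradation. VEGFB, a growth factor, STARD7, which carries phosphatidylcholine to mitochondria, CTBP1, a transcriptional corepressor, and PPM1D, a phosphatase that turns p53 signalling off, complete the 12. Their log2 differences ranged from -2.33 for DACT3 to -0.90 for CCNY. In all 29 lower genes named for this pair the 6 CO2 goats and the 6 room-air goats did not overlap in VRC minus RTN. Across all tested genes 1.87% did not overlap in that direction, and the 29 were named for this same contrast. In each of the 29 the VRC exceeded the RTN in all 6 room-air goats, and in 22 the VRC lay below the RTN in all 6 CO2 goats. The share of all tested genes with goats on these sides was not counted, and the choice of the 29 favours such sides.

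EGLN1 had 36.5 to 45.2 CPM, median 43.2, in the VRC after CO2, against 59.8 to 85.8 CPM, median 81.7, in the VRC in room air. In the RTN EGLN1 had 62.1 to 81.1 CPM, median 65.2, after CO2, against 40.9 to 56.5 CPM, median 50.05, in room air. CO2 and room air did not overlap at either site, and they lay in opposite order. The NTS overlapped, with 44.9 to 72.8 CPM after CO2 and 33.8 to 56.1 CPM in room air. The VRC effect was below the RTN effect by -1.39 (SE 0.15, adjusted p = 4.03e-07, edgeR) and below the NTS effect by -0.98 (SE 0.15, adjusted p = 0.000148, edgeR). Of the 21 HIF-pathway genes listed, 4 carry a symbol: EGLN1 and VEGFB were lower in the VRC in both pairs, while VEGFA had -0.11 against the RTN and 0.01 against the NTS and VEGFC -0.11 and -0.26, neither past the threshold.

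Signalling genes with a symbol lay on the same side. Of 17 growth and Hippo genes listed, 5 carry a symbol and all 5 had a lower effect in the VRC than in the RTN and than in the NTS. Lower calls made up 2.01% and 4.53% of all tested genes in these pairs, and 81 and 92 of the 234 symbols, which also bears on the lists that follow. They were NRG2, AKT1, a kinase of growth signalling, STK11, which activates the energy sensor AMPK, LATS2, a Hippo kinase, and NCK2, an adaptor of receptor kinases. Their median difference was -1.60 against the RTN and -1.22 against the NTS, beside -0.01 and -0.03 for all tested genes. AKT1 had 25.9 to 32.7 CPM in the VRC after CO2 and 53.95 to 84.4 CPM in the VRC in room air, and 39.4 to 81.8 CPM in the RTN after CO2 and 27.1 to 41.5 CPM in the RTN in room air. The VRC groups were well apart, and the RTN groups overlapped by a narrow margin. Of 17 Wnt genes 4 carry a symbol, and all 4 (CCDC85C, DACT3, APCDD1 and RHOU, a Wnt-induced GTPase) were lower in both pairs, with a median of -1.97 against the RTN.

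Of 15 p53 target genes 4 carry a symbol. PHLDA3 and PPM1D were lower in both pairs, with PPM1D at -2.23 against the RTN and -1.67 against the NTS. BAX, which promotes apoptosis, and ACER2, a ceramidase, did not pass in either pair. The corepressor TRIM28 and the zinc finger protein ZNF329 were lower in both pairs, as was the clock repressor NR1D2, the single clock gene with a symbol. Of 8 genes of vesicle traffic and autophagy with a symbol, 7 were lower in both pairs: RAB12, AGFG1, ADAP1, LRP3, LRP8, a reelin receptor, DENND5A and AGAP3. The eighth, MAP1LC3A, a coat protein of autophagosomes, was higher in the VRC than in the NTS by 0.54 (SE 0.13, adjusted p = 0.00522, edgeR), a call lost without the goat block (adjusted p = 0.0659). Of the genes of these lists all but VEGFC, BAX and ACER2 are in the authors' tables for the NTS or the VRC at 24 h, chosen on libraries used here, so the counts are no independent evidence of direction. With the 3 h libraries added to the fit, AKT1, NR1D2, LRP3 and RAB12 missed the threshold against the NTS (adjusted p = 0.0662, 0.05003, 0.221 and 0.178) and LRP3 and DENND5A against the RTN (adjusted p = 0.147 and 0.0822). VEGFB missed it against the NTS without the goat block (adjusted p = 0.0837).

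OLIG1 and OLIG2, transcription factors of the oligodendrocyte lineage, were the 2 of 10 listed oligodendrocyte genes with a symbol. OLIG1 had 14.7 to 36.3 CPM, median 27.0, in the VRC after CO2, against 84.3 to 119 CPM, median 97.3, in the VRC in room air. In the RTN OLIG1 had 42.1 to 83.2 CPM after CO2 and 19.0 to 54.3 CPM in room air. The VRC groups stood far apart, and the RTN groups overlapped. The log2 differences of effect were -2.82 (SE 0.32, adjusted p = 6.28e-06, edgeR) for OLIG1 and -2.21 (SE 0.28, adjusted p = 6.28e-06, edgeR) for OLIG2 against the RTN. Against the NTS they were -1.95 (SE 0.32, adjusted p = 0.000547, edgeR) and -1.45 (SE 0.28, adjusted p = 0.00125, edgeR), and OLIG2 missed the threshold there with the 3 h libraries in the fit (adjusted p = 0.0535). In punches of whole tissue, fewer cells of a type and less RNA per cell cannot be told apart. The myelin genes MBP and MOG carry no symbol here, so the part of oligodendrocyte content in these results was not tested.

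The second comparison set the VRC against the NTS and had calls in both directions, with 727 lower (4.53%) and 701 higher (4.37%) effects in the VRC. The lower genes with a symbol were led by CCNY, STARD7 and ZNF329. The higher genes were led by SMIM11, TOMM7 and GTF2H5 and held small proteins of the ribosome, the respiratory chain and RNA polymerase II.

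CCNY had 91.5 to 123 CPM, median 108, in the VRC after CO2, against 136 to 194 CPM, median 167, in the VRC in room air. In the NTS CCNY had 88.4 to 133 CPM, median 120, after CO2, against 66.5 to 99.8 CPM, median 93.8, in room air. The VRC groups did not overlap, and the NTS groups overlapped by the 2 lowest CO2 libraries. The VRC effect was below the NTS effect by -0.96 (SE 0.09, adjusted p = 6.11e-07, edgeR). Within goats, VRC minus NTS was near 0 after CO2, at -0.21 to 0.14, and 0.71 to 1.02 in room air (exact permutation p = 0.002165).

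STARD7 had 95.1 to 121 CPM, median 106, in the VRC after CO2, against 129 to 204 CPM, median 190, in the VRC in room air. In the NTS STARD7 had 99.5 to 161 CPM after CO2 and 74.2 to 126 CPM in room air, so only the VRC groups were free of overlap. Its log2 difference was -0.96 (SE 0.11, adjusted p = 7.60e-06, edgeR).

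ZNF329 had 11.9 to 18.7 CPM, median 13.6, in the VRC after CO2, against 25.1 to 38.0 CPM, median 28.5, in the VRC in room air. In the NTS ZNF329 had 17.9 to 29.3 CPM, median 24.6, after CO2, against 11.01 to 19.5 CPM, median 16.6, in room air. CO2 libraries were the lower ones in the VRC and, but for 1, the higher ones in the NTS, and the log2 difference was -1.66 (SE 0.20, adjusted p = 1.43e-05, edgeR). The 12 leading lower genes also held MAN2A2, a Golgi mannosidase, MPRIP, a partner of myosin phosphatase, EIF4E3, a cap-binding protein, RHOU, and PHLDA3, CCDC85C, APCDD1, EGLN1 and NRG2 of the comparison with the RTN. The VRC libraries are the same in both comparisons, so the repeat of names is no second observation.

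SMIM11 had 46.7 to 56.6 CPM, median 53.1, in the VRC after CO2, against 27.7 to 41.4 CPM, median 37.7, in the VRC in room air. In the NTS SMIM11 had 26.3 to 40.9 CPM, median 28.9, after CO2, against 38.8 to 69.2 CPM, median 47.9, in room air. CO2 libraries were the higher ones in the VRC without overlap and the lower ones in the NTS with an overlap of 1 library. The log2 difference was 1.23 (SE 0.14, adjusted p = 7.60e-06, edgeR). In the RTN its medians were 46.5 CPM after CO2 and 46.6 CPM in room air.

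TOMM7, a subunit of the mitochondrial protein import pore, had 107 to 128 CPM, median 120, in the VRC after CO2, against 59.6 to 118 CPM, median 94.9, in the VRC in room air. In the NTS TOMM7 had 66.5 to 100 CPM, median 68.5, after CO2, against 102 to 204 CPM, median 108, in room air. The NTS groups did not overlap. Its log2 difference was 1.00 (SE 0.15, adjusted p = 0.000130, edgeR).

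GTF2H5, a subunit of the general transcription factor TFIIH, had 38.7 to 51.2 CPM, median 46.3, in the VRC after CO2, against 27.6 to 44.0 CPM, median 36.05, in the VRC in room air. In the NTS GTF2H5 had 24.5 to 39.2 CPM, median 29.7, after CO2, against 38.5 to 77.2 CPM, median 42.9, in room air. The CO2 libraries lay on opposite sides of room air at the 2 sites, each with overlap, and the log2 difference was 1.00 (SE 0.15, adjusted p = 0.000135, edgeR). Within goats these 6 genes had groups without overlap in VRC minus NTS and an exact permutation p of 0.002165 each. Of the genes named for this pair, 25 of 31 lower and 8 of 25 higher ones had goats without overlap, and across all tested genes 1.66% had lower and 1.11% higher CO2 goats without overlap.

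Every one of 13 cytosolic ribosomal protein genes with a symbol, of 79 listed, had a higher effect in the VRC than in the NTS, with a median difference of 1.05 and a range of 0.83 to 1.42. Higher calls in this pair made up 4.37% of all tested genes and 76 of the 234 symbols. The ribosomal and respiratory symbols come from the authors' tables of changed genes at 24 h, so their counts are no independent evidence of direction. RPL26 had 67.4 to 100 CPM, median 80.3, in the VRC after CO2, against 37.8 to 77.4 CPM, median 49.5, in the VRC in room air. In the NTS RPL26 had 30.9 to 63.1 CPM, median 37.9, after CO2, against 51.3 to 112 CPM, median 67.0, in room air. Both sites overlapped, in opposite order, and the difference was 1.42 (SE 0.24, adjusted p = 0.000563, edgeR). Against the RTN 0 of the 13 passed by edgeR and 1 by DESeq2, 6 had an unadjusted p under 0.05 (12.8% of all tested genes did), and the median was 0.41.

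The list of nuclear-encoded respiratory chain and ATP synthase genes has 76 members. All 14 with a symbol likewise passed the threshold with a higher effect in the VRC than in the NTS, as did 4.37% of all tested genes. Their median difference was 0.92, with a range of 0.68 to 1.23. Not all of the 14 encode subunits of the chain. Examples of mitochondrial genes that do not are MICOS10, which organises cristae, and ROMO1, a modulator of reactive oxygen species. NDUFS5, a complex I subunit, had 284 to 342 CPM in the VRC after CO2 and 191 to 282 CPM in the VRC in room air, and 180 to 232 CPM in the NTS after CO2 and 229 to 414 CPM in the NTS in room air. The VRC groups did not overlap. Its difference was 0.89 (SE 0.14, adjusted p = 0.000227, edgeR), and NDUFA6, another complex I subunit, reached 1.23 (SE 0.23, adjusted p = 0.00109, edgeR). Against the RTN 0 of the 14 passed by edgeR and 1 by DESeq2, and 8 had an unadjusted p under 0.05. The 3 polymerase II genes with a symbol, GTF2H5, POLR2I and POLR2L, were also higher, and TXN, which reduces protein disulfides, had 0.93 (SE 0.15, adjusted p = 0.000274, edgeR).

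COX1, encoded by the mitochondrial genome, ran the other way. COX1 had 217 to 390 CPM, median 234, in the VRC after CO2, against 326 to 1410 CPM, median 880, in the VRC in room air. In the NTS COX1 had 130 to 1629 CPM, median 1109, after CO2, against 83.4 to 554 CPM, median 323, in room air. The lowest CO2 value is that of number 5, one of the NTS libraries that stood apart. The VRC effect was below the NTS effect by -3.37 (SE 0.73, adjusted p = 0.00515, edgeR), which did not pass when the fit held only those sites' libraries (adjusted p = 0.0754).

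The summed level of the 13 ribosomal genes moved with these groups. It was 1525 to 1834 CPM, median 1612, in the VRC after CO2, against 872 to 1619 CPM, median 1251, in the VRC in room air. In the NTS the sum was 753 to 1323 CPM, median 887, after CO2, against 1198 to 2385 CPM, median 1395, in room air. In the RTN the medians were 1473 CPM after CO2 and 1401 CPM in room air. The sum of the 14 genes of the respiratory list had medians of 3228 and 2534 CPM in the VRC after CO2 and in room air, and of 1882 and 2857 CPM in the NTS. Of the 6 site and exposure groups, the NTS after CO2 had the lowest median of both sums and the highest median of COX1. The genes summed carry symbols from the authors' tables of changed genes at 24 h, which rest on these libraries. That choice favours extreme sums in the groups compared, so the order of the sums is no independent evidence. RNA integrity values are not among the labels used here, and the part of RNA quality in these results was not tested.

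**Figure D3:**
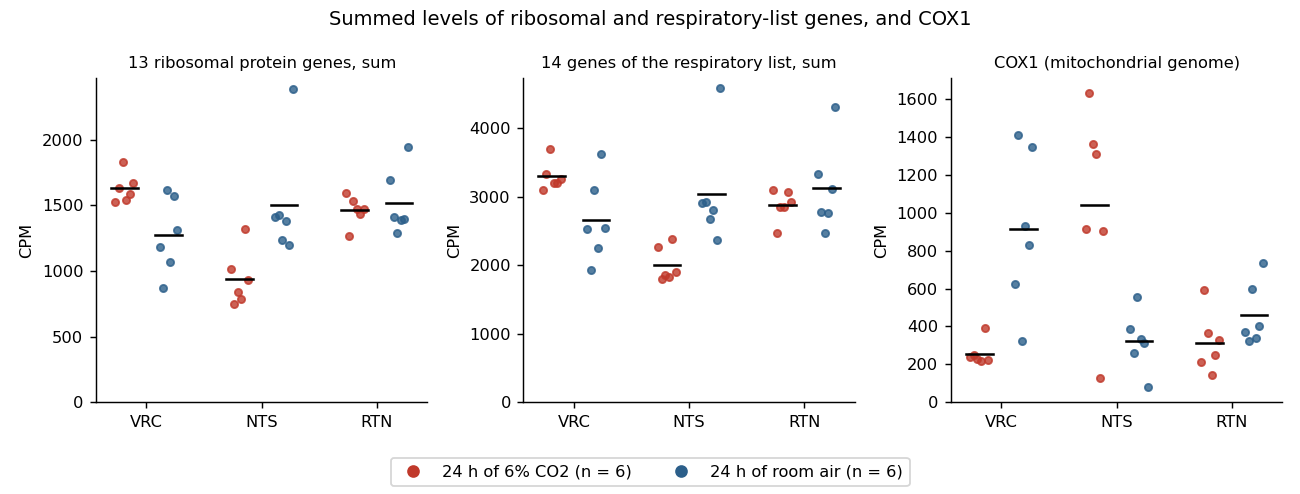
CPM summed over 13 ribosomal protein genes (left) and 14 genes of the respiratory list (middle), and CPM of COX1 (right), in each library, CO2 in red to the left of room air in blue, with a bar for the mean of 6. By its median the NTS after CO2 is the lowest group in the first 2 panels, at 887 and 1882 CPM, and the highest in the COX1 panel, at 1109 CPM, but its libraries overlap with those of VRC room air in all 3 panels. The summed genes come from the authors' tables of changed genes at 24 h, a choice that favours such an order.

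Markers of other cell types were few. Of 5 microglia and myeloid genes with a symbol, MYO1G, a myosin of blood cells, was higher in the VRC than in the NTS by 1.19 (SE 0.19, adjusted p = 0.000356, edgeR) and AIF1 by 0.76 (SE 0.19, adjusted p = 0.00976, edgeR). NCF4 (0.48), CD1D (0.39) and CD14 (-0.65, on the other side) did not pass. In the NTS the CO2 effect, not tested, was -0.68 for MYO1G and -0.64 for AIF1, but 0.83 for CD14, 0.95 for NCF4 and 0.77 for CD1D. The AIF1 call was lost without the goat block (adjusted p = 0.0666). Of 6 endothelial genes FOXQ1 alone passed, lower in the VRC than in the RTN by -2.49 (SE 0.57, adjusted p = 0.00846, edgeR) and than in the NTS by -1.97 (SE 0.50, adjusted p = 0.00921, edgeR), and it missed the threshold with the 3 h libraries in the fit (adjusted p = 0.105 against the RTN and 0.0733 against the NTS). FOXQ1 averaged 0.68 CPM over the 36 libraries, under the 1 CPM asked of the leading genes, so its differences lie near the floor. The red cell genes split, HBQ1 higher in the VRC than in the NTS by 0.95 (SE 0.28, adjusted p = 0.0292, edgeR) and HEMGN lower by -1.74 (SE 0.54, adjusted p = 0.0395, edgeR), and both calls were lost without the goat block (adjusted p = 0.0664 and 0.106) and with the 3 h libraries in the fit (adjusted p = 0.0617 and 0.140). Of 5 neuronal genes 0 passed in any pair by edgeR. Against the NTS 3 passed by DESeq2, as did 1714 of 16048 tested genes. In the same pair 4 of the 5 had an unadjusted p under 0.05 by edgeR, as did 3623 of 16048. The 5 differences ran from 1.03 to 3.74, and NPFF, SHOX2, GRP and PRPH were highest among NTS room-air libraries in numbers 5 and 6. In VRC minus RTN 0 and in NTS minus RTN 3 of the 5 had an unadjusted p under 0.05, and DESeq2 called 0 in either pair.

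**Figure D4:**
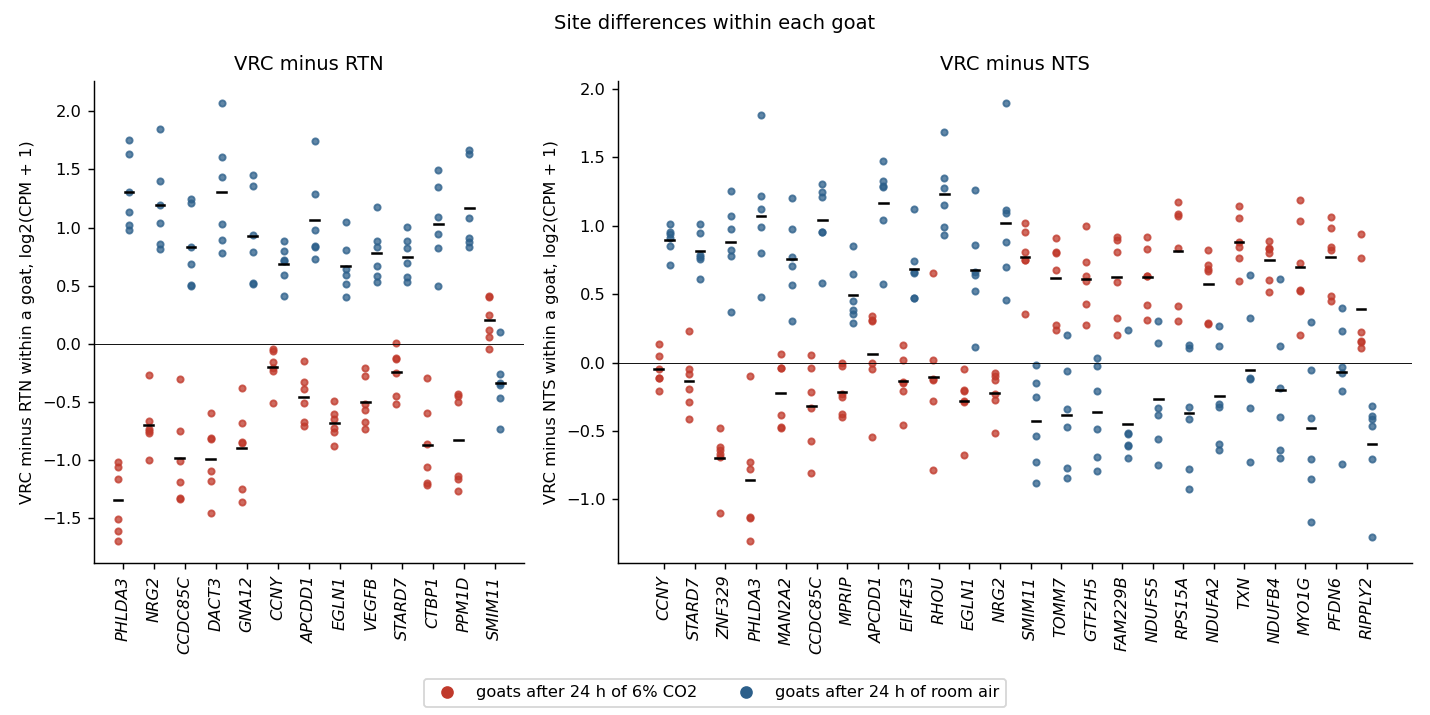
VRC minus RTN (left) and VRC minus NTS (right) within each goat, in log2(CPM + 1), for the leading genes, with CO2 goats in red to the left of room-air goats in blue and bars for the means of 6. For PHLDA3 on the left the CO2 goats lie at -1.70 to -1.02 and the room-air goats at 0.98 to 1.75.

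The third comparison, NTS against RTN, compares no VRC library and was weighed apart, though VRC libraries share the fit of 36. With 0 genes past the threshold, the genes of lowest p are given as values that did not pass by edgeR over 36 libraries. SMIM11 had a difference of -0.67 (SE 0.14, adjusted p = 0.122), VEGFB -0.68 (SE 0.14, adjusted p = 0.122) and TOMM7 -0.61 (SE 0.15, adjusted p = 0.264). On the other side stood GSAP, an activator of gamma-secretase, at 0.67 (SE 0.16, adjusted p = 0.264), HEMGN, a nuclear protein of blood cell precursors, at 1.70 (SE 0.51, adjusted p = 0.317) and COX1 at 2.20 (SE 0.70, adjusted p = 0.369). The calls depended on the tool. SMIM11, VEGFB, TOMM7 and GSAP passed by DESeq2 (adjusted p = 0.01575, 0.01575, 0.0461 and 0.0401). The same genes passed by voom with quality weights (adjusted p = 0.0163, 0.0235, 0.0212 and 0.0295). HEMGN and COX1 passed in no planned setting.

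VEGFB had 13.4 to 25.8 CPM, median 17.1, in the NTS after CO2, against 16.2 to 24.5 CPM, median 19.5, in the NTS in room air. In the RTN VEGFB had 23.3 to 33.1 CPM, median 26.2, after CO2, against 16.0 to 21.5 CPM, median 18.2, in room air. The RTN groups did not overlap and the NTS groups did. GSAP had 21.6 to 35.3 CPM, median 30.3, in the NTS after CO2, against 17.0 to 25.9 CPM, median 19.7, in the NTS in room air. In the RTN GSAP had 16.2 to 20.3 CPM after CO2 and 14.8 to 23.3 CPM in room air, with the CO2 libraries inside the range of room air. Within goats SMIM11, VEGFB, TOMM7 and GSAP had CO2 and room-air goats without overlap (exact permutation p = 0.002165 each). Across all tested genes 0.536% had lower CO2 goats and 0.181% higher CO2 goats without overlap in NTS minus RTN, and these genes were picked for the same contrast. HEMGN (exact permutation p = 0.0368) and COX1 (exact permutation p = 0.0130) overlapped, and HEMGN lay at a median of 1.36 CPM or less in each group.

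Fitted on the 24 libraries of the NTS and the RTN alone, 48 of 15727 genes passed (0.305%), 46 with a lower effect in the NTS and 2 with a higher one. The 19 with a symbol were all lower in the NTS. They held the ribosomal genes RPL36, RPL38, RPLP2, RPS10 and RPS28, the complex I genes NDUFA6, NDUFA13 and NDUFB4, the mitochondrial gene ROMO1, and POLR2L, GTF2H5, TOMM7, SMIM11, VEGFB and MYO1G. RPL38 had -0.87 (SE 0.15, adjusted p = 0.0290, edgeR) and NDUFB4 -0.52 (SE 0.08, adjusted p = 0.0290, edgeR). In the fit of 36 libraries all 13 ribosomal genes lay below 0, with a median of -0.69, 0 past the threshold, 13 with an unadjusted p under 0.05 (7.95% of all tested genes, 4.7% on the lower side) and 1 called by DESeq2. All 14 genes of the respiratory list lay below 0 too, with a median of -0.51 and 0 past the threshold. All 14 had an unadjusted p under 0.05, and DESeq2 called 0. The symbols come from the authors' tables of changed genes, mostly at 24 h, which rest on libraries used here. All 94 tested symbols that the authors' NTS table lists as lower at 24 h lay below 0 in this pair. The shared direction of the 19, the 13 and the 14 is thus favoured by that choice and no independent evidence.

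Some symbols allow a reading on libraries that did not choose them. The authors' deposited table of the VRC at 24 h lists 87 tested symbols as lower after CO2, chosen on VRC libraries. NTS minus RTN compares none of those libraries. The goats are the same, and the fit of 36 libraries takes its gene filter and variance estimates from all 3 sites. The p-values and calls thus rest in part on the libraries that chose the symbols, and the reading is not independent. Of the 87, 80 had a lower effect in the NTS than in the RTN, with a median of -0.39, and 36 of them had an unadjusted p under 0.05. By edgeR 0 of the 87 passed the adjusted threshold and by DESeq2 3. Across all tested genes 49.0% lay below 0 and 4.7% lay below 0 with an unadjusted p under 0.05. The authors' deposited table of the NTS at 24 h lists 94 tested symbols as lower, and VRC minus RTN compares no NTS library, with the same limits. Of those 94, 87 had a higher effect in the VRC than in the RTN, with a median of 0.39, and 37 of them had an unadjusted p under 0.05. By edgeR 1 of the 94 passed the adjusted threshold and by DESeq2 8. Across all tested genes 51.0% lay below 0 and 5.28% lay above it with an unadjusted p under 0.05.

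VRC room-air libraries and NTS CO2 libraries stood at the ends of the 15 site and exposure groups in many of the called genes. Among the 323 genes with a lower effect in the VRC than in the RTN, VRC room air at 24 h had the highest of the 15 group means in 185 (57.3%), against 8.91% of all tested genes. Among the 701 genes with a higher effect in the VRC than in the NTS, NTS CO2 at 24 h had the lowest of the 15 means in 376 (53.6%), against 8.89% of all. These shares are favoured by the choice of the genes.

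A second set of room-air goats, kept for 7 d and processed in the second batch, gave other counts when set in the place of the 24 h room-air goats, a comparison chosen after seeing the data. The VRC then differed from the RTN in 5 of 16045 genes (0.0312%), from the NTS in 1064 (6.63%), and the NTS from the RTN in 326 (2.03%). Of the 29 named genes lower in the VRC than in the RTN, 0 passed by edgeR or DESeq2, while 28 kept the direction and 1, FOXQ1, turned. By edgeR 8 of the 29 had an unadjusted p under 0.05, as did 1711 of the 16045 tested genes. The differences of the 29 ranged from -1.03 to 0.55, and PHLDA3 had -0.65 (SE 0.42, adjusted p = 0.599, edgeR). For EGLN1 it was -0.33 (SE 0.24, adjusted p = 0.643, edgeR) and for OLIG1 -0.28 (SE 0.58, adjusted p = 0.900, edgeR). Here the 7 d goats differ from the CO2 goats in batch and in days of housing as well, and these cannot be told apart from exposure.

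The genes higher in the VRC than in the NTS went differently in the same exchange. Of 25 named, 17 passed again and 8 kept the direction without passing. SMIM11 had 0.92 (SE 0.21, adjusted p = 0.0110, edgeR), TOMM7 0.81 (SE 0.20, adjusted p = 0.0151, edgeR), RPL26 1.13 (SE 0.27, adjusted p = 0.0157, edgeR) and NDUFA6 1.15 (SE 0.23, adjusted p = 0.00624, edgeR). Of 31 named genes lower in the VRC than in the NTS, ZNF329 alone passed again, at -1.003 (SE 0.28, adjusted p = 0.0285, edgeR), 26 kept the direction and 4 turned. The 24 h CO2 goats are the same in both versions, so they are not independent.

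Between the 2 sets of room-air goats the site differences themselves differed. VRC minus RTN was higher at 24 h than at 7 d in all 40 of 16095 genes that passed (0.249%). PHLDA3 differed by 2.20 (SE 0.41, adjusted p = 0.0185, edgeR), NRG2 by 1.66 (SE 0.32, adjusted p = 0.0185, edgeR) and ZNF329 by 1.36 (SE 0.27, adjusted p = 0.0207, edgeR). Within goats, PHLDA3 VRC minus RTN averaged 1.30 ± 0.32 in 24 h room air, -0.82 ± 1.42 after 3 h of CO2, -1.34 ± 0.30 after 24 h of CO2, -0.44 ± 1.24 after 7 d of CO2 and -0.73 ± 0.98 in 7 d room air (SD, n = 6 each). For PHLDA3 the 24 h room-air mean stood above those of the other 4 exposures, and the spread among goats was widest after 3 h. PHLDA3, NRG2 and ZNF329 were named for contrasts that use these 24 h room-air libraries. That choice favours a high VRC minus RTN there, so their differences between room-air sets are no independent evidence. The 2 sets also differ in batch and in days of housing, which cannot be told apart.

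**Figure D5:**
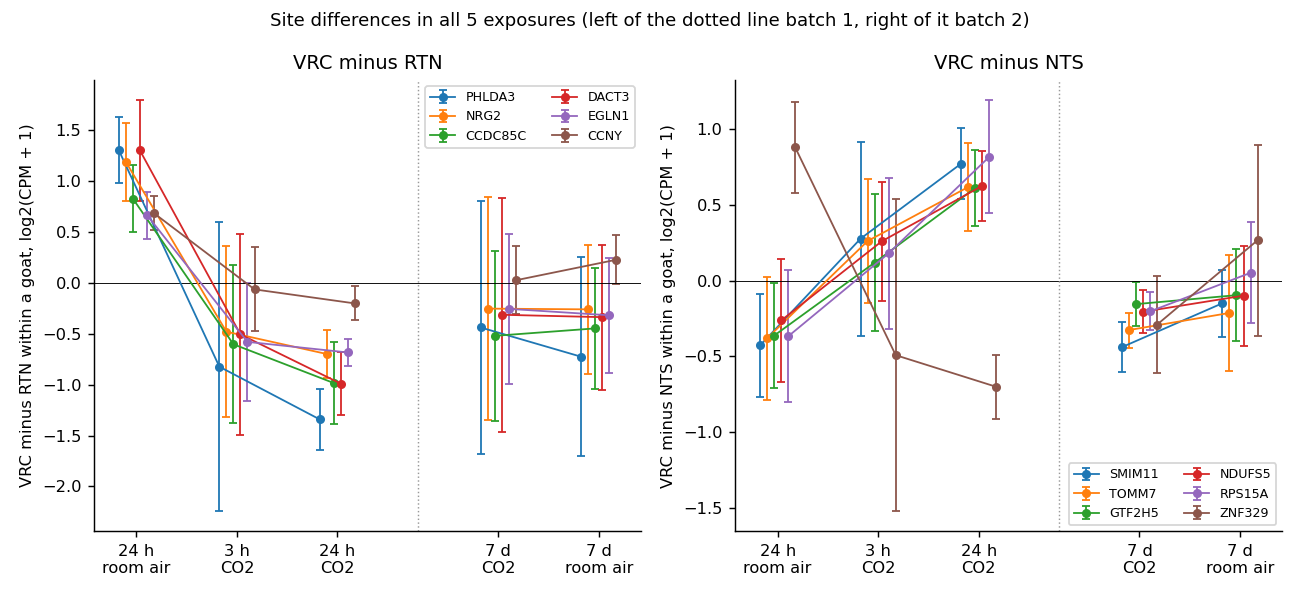
Mean ± SD over 6 goats of the within-goat site difference, in log2(CPM + 1), in all 5 exposures, VRC minus RTN on the left and VRC minus NTS on the right, with batch 1 and batch 2 on either side of the dotted line. PHLDA3 has -1.34 after 24 h of CO2, 1.30 in 24 h room air and -0.73 in 7 d room air, while SMIM11, for VRC minus NTS, has 0.77, -0.43 and -0.15 in the same groups.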

How the data were processed

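Raw counts per Ensembl goat gene were deposited by the authors for 90 libraries, and 0 sample columns were left out. The submitters' processing notes name edgeR 4.6, featureCounts 2.0.6, STAR 2.7.10b and fastp 0.24.0, and the build is not given in the sources used here. Per the file headers, the authors' gene tables hold log2 fold changes and abundances, a likelihood ratio (a score) and p-values. All 342 deposited entries matched 1 gene by abundance, which linked 238 symbols.

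Here R 4.3.3 and edgeR 4.0.16 were used: filterByExpr, TMM, glmQLFit (robust=TRUE, legacy=FALSE) with goat, site and site by CO2 terms on 36 libraries, which leaves 20 residual degrees of freedom, and Benjamini-Hochberg adjustment over all 16048 genes. Effects at single sites came from the fit without goats and were not tested. Alternatives used DESeq2 1.42.0 and limma 3.58.1. Within-goat differences used a pseudocount of 1 CPM and an exact permutation test over 924 splits. Scripts were tested on simulated data. CPM used TMM factors over all libraries.

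The study's design text has each goat punched at each site, and equal numbers within an exposure were taken as 1 goat: residuals of 36 same-number pairs correlated at 0.0886 to 0.509, and 71 of 72 best matches had the same number.

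The comparisons and the 22 gene lists were chosen with earlier results of these data known. The genes named are the 12 of lowest p in each direction of a pair that passed 0.05, carry a symbol and average at least 1 CPM, plus called list members, at most 6 a list. Values in full are given for the 3 of lowest p in each direction. Genes named for NTS and RTN alone, the members of a list that did not pass and PRPH were chosen after their values were seen. Depth limits the precision of low genes.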

Additional observations from a re-analysis of the deposited data

Results flagged for a closer look

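These differences of the CO2 effect between sites passed the adjusted threshold among the genes whose values are given in full. VRC minus RTN was -2.84 for PHLDA3, -2.10 for NRG2, -2.19 for CCDC85C and 0.56 for SMIM11. VRC minus NTS was -0.96 for CCNY, -0.96 for STARD7 and -1.66 for ZNF329. VRC minus NTS was 1.23 for SMIM11, 1.00 for TOMM7 and 1.00 for GTF2H5.

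Single goats stood far from the other 5 of their exposure in 2 within-goat differences by Dixon's criterion for 6 samples, which chance meets in about 1 group of 20. Both exposures of every gene and pair given in full were tried, so hits of this kind are likely by chance alone. For ZNF329, VRC minus NTS was -1.10 in CO2 goat 6. For COX1, NTS minus RTN was -3.12 in room-air goat 6, with a gap of 0.864 of the range.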

How the results depend on the processing

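Without the replicate block (goat) 491 genes passed jointly, 196 for VRC against RTN, 593 for VRC against NTS (376 higher and 217 lower, beside 701 and 727 with it) and 540 for VRC against the other sites' mean. With the 3 h libraries in the fit (54 libraries) the counts were 647, 185, 782 (538 higher, 244 lower) and 726. With only the libraries of both sites compared, VRC against NTS had 919 and NTS against RTN 48. NTS against RTN had 22 by DESeq2, 131 by voom with quality weights and 8 without the NTS libraries that stood apart; VRC against RTN then had 578 without those libraries and 536 by voom with quality weights. With the 7 d room-air goats the counts were 5 for VRC against RTN, 326 for NTS against RTN and 118 for VRC against the mean.

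Leaving out a goat at a time gave 687 to 1362 jointly, 265 to 547 for VRC against RTN, 864 to 1798 for VRC against NTS, 0 to 9 for NTS against RTN and 766 to 1720 for VRC against the mean. Without CO2 goat 3 the joint count was 687, VRC against NTS 864 and VRC against the mean 789; without CO2 goat 2 the last was 766. Without room-air goat 5 VRC against RTN had 547, without CO2 goat 5 NTS against RTN had 9, and without room-air goats 3 and 4 it had 2 and 1. Every other count run lay within 1.5 times the main one.

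With the 7 d room-air goats the direction turned for APCDD1 (0.0919), RAB12 (0.125), OLIG2 (0.0429) and FOXQ1 (0.0399) in VRC minus NTS, for FOXQ1 (0.546) in VRC minus RTN and for HEMGN (-0.0387) in NTS minus RTN. Of the 29 genes named as lower in the VRC than in the RTN, 26 kept the call in all planned settings, as did 22 of 31 lower and 22 of 25 higher against the NTS. HEMGN kept the call against the NTS in 3 of 12 planned settings. The causes were not tested. The shallow VRC library of 5.46 M counts limits the low genes most.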
